A study of Mus musculus with 36 samples.

Results

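The 10 genes described here encode 7 secreted ligands of the bone morphogenetic protein (BMP) and growth differentiation factor (GDF) family, Gdf5, Gdf6, Gdf10, Bmp2, Bmp4, Bmp6 and Bmp7, and 3 secreted antagonists that bind such ligands, Grem1, Chrdl2 and Nog. Their RNA was read from the transcript row of each gene, 1 row per gene and 10 of the 30048 rows in the count files. Their DNA methylation was read at the CpG cytosines in the gene bodies and within 5 kb on each side. At 4 weeks these were 1214 of the 1444973 cytosines with at least 10 reads in all 6 libraries, and at 12 weeks 1141 of 1273121. The cartilage came from male C57BL/6J mice that were 12 weeks old when the medial meniscus of the right knee was destabilized (DMM), a surgical model of osteoarthritis. The unoperated left knees of the mice served as controls, so no sham-operated limb was included. Tibial and femoral cartilage of 3 knees was pooled per library, and each assay had 3 control and 3 DMM libraries at 4 weeks and again at 12 weeks. RNA and DNA came from different mice. When the libraries of each week were made is not given in the sources used here. Differences between the weeks thus cannot be told apart from differences in library preparation.

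BMP and GDF ligands are secreted dimers of the transforming growth factor beta superfamily that bind serine/threonine kinase receptors and, through phosphorylated SMAD proteins, switch on targets such as the Id genes. Gremlin 1, chordin-like 2 and noggin bind ligands outside the cell and keep them from their receptors. In cartilage, Gdf5 and Gdf6 are known for joint formation, and Bmp2, Bmp4, Bmp6 and Bmp7 for chondrocyte differentiation and matrix synthesis.

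RNA library totals ranged from 27706547 to 62737656 counts. All 12 chondrocyte markers, such as Acan, Col2a1 and Prg4, were detected. They summed to 9200 to 19887 CPM (counts per 1000000 counts of the normalized library) in control and 8407 to 12318 CPM in DMM cartilage at 4 weeks, and to 7348 to 21140 and 15122 to 23861 CPM at 12 weeks. The libraries also held RNA of other tissues. The 12 skeletal muscle markers summed to 5844 to 21100 CPM in control and 520 to 3482 CPM in DMM cartilage at 4 weeks, and to 87.4 to 14906 and 551 to 11317 CPM at 12 weeks. The 8 neutrophil and marrow markers summed to 8879 to 25394 and 12914 to 19220 CPM at 4 weeks and to 24958 to 41884 and 20086 to 32734 CPM at 12 weeks, above the chondrocyte sum in part of the libraries. The 7 erythroid markers summed to 6779 to 18784 and 6448 to 13843 CPM at 4 weeks and to 10071 to 14276 and 7366 to 12625 CPM at 12 weeks. Hba-a1 and Hba-a2 had identical levels in every library and are not separate measures in this sum or in counts of erythroid markers. The sum of the 6 tendon and ligament markers was higher in every DMM library. It was 225 to 696 against 959 to 1327 CPM at 4 weeks and 247 to 456 against 724 to 1438 CPM at 12 weeks. Fmod was the highest of the 6 in every library, at 140 to 436 against 604 to 1039 CPM at 4 weeks. At 12 weeks Fmod was at 160 to 345 against 607 to 1207 CPM. Single markers overlapped between the limbs, Scx and Thbs4 at 4 weeks and Tnmd, Scx, Mkx and Kera at 12 weeks. Of these 5 lists, the erythroid marker Ahsp was not analysed here, and no other marker was at 0 in all libraries. In bulk cartilage, fewer cells of a type and less RNA per cell cannot be told apart.

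In GRCm38, 4 of the members lie on chromosome 2: Gdf5 (chr2:155941023-155945367, minus strand, 2 exons), Bmp2 (chr2:133552159-133562896, plus strand, 3 exons), Bmp7 (chr2:172868012-172940321, minus strand, 7 exons) and Grem1 (chr2:113748675-113758648, minus strand, 2 exons). Gdf10 (chr14:33923587-33936514, plus strand, 3 exons) and Bmp4 (chr14:46383525-46390669, minus strand, 4 exons) lie on chromosome 14. The others are Gdf6 (chr4:9844372-9862345, plus strand, 2 exons), Chrdl2 (chr7:100006404-100034728, plus strand, 11 exons), Nog (chr11:89300638-89302559, minus strand, 1 exon) and Bmp6 (chr13:38345716-38500314, plus strand, 7 exons).

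Of the 10 members, the promoters of Gdf10, Bmp4, Bmp6 and Grem1 were in the RefSeq promoter table of GRCm38.p6. Their 250 bases before the transcription start are shown because reduced representation sequencing reads CpGs near MspI sites (CCGG), and these stretches show which promoter CpGs the libraries reached. Capitals mark the CpGs read in all 12 oxidative bisulfite (oxBS) libraries, and sequences run 5′ to 3′.
Gdf10 promoter, chr14:33923337-33923586, plus strand: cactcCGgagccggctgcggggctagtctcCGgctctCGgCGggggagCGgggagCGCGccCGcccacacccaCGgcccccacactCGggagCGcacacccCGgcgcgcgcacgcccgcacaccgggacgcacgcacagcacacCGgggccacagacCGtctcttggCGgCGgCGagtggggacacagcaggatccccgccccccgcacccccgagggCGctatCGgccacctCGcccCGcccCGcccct
Bmp4 promoter, chr14:46390670-46390919, minus strand: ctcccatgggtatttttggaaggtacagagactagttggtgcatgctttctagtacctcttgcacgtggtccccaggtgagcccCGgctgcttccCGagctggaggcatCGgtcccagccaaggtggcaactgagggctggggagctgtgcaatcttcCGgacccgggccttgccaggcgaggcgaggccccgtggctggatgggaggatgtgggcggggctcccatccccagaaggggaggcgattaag
Bmp6 promoter, chr13:38345466-38345715, plus strand: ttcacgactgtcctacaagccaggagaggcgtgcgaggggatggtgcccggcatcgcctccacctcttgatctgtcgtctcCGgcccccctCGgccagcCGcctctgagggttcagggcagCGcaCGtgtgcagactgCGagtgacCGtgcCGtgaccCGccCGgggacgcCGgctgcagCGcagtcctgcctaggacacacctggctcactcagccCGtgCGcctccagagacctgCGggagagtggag
Grem1 promoter, chr2:113758649-113758898, minus strand: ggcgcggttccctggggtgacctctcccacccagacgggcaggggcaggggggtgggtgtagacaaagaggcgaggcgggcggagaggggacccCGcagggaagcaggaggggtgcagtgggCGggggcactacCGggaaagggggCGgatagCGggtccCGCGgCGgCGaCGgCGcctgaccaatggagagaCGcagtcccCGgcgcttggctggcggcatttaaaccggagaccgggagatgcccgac

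In the 300-base promoter windows, which also take in the first 50 bases of the gene, the libraries covered 38 cytosines in Gdf10, 5 in Bmp4, 24 in Bmp6 and 21 in Grem1, counting both strands. CG, a motif that reads the same on both strands, occurred 42 times in Gdf10, 12 in Bmp4, 27 in Bmp6 and 28 in Grem1, and CCGG, which also holds a CG, 7, 3, 5 and 4 times. Of 32851 mouse promoters of this length, 94.6% held CG and 52.8% held CCGG. Methylation in these windows was low in every library, at 0.410 to 1.27% in Gdf10, 0.859 to 2.17% in Bmp6, 0.446 to 1.88% in Grem1 and 3.45 to 9.58% in Bmp4. Between the limbs, the Bmp4 window was at 3.45 to 6.02% in control and 6.39 to 8.39% in DMM cartilage at 12 weeks, with an overlap at 4 weeks, and the Grem1 window at 1.17 to 1.88% and 0.578 to 1.05% at 4 weeks, with an overlap at 12 weeks. These window differences were picked after their values were seen and have no test.

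The stretch in which the methylation of a member differed most at 12 weeks lies in the second and last exon of Gdf5, in coding sequence. It is shown because 8 of its cytosines, in the 7 CpGs written in capitals, were tested at that week. The stretch was chosen after its values were seen, and the genome sequence is that of GRCm38.
Gdf5 exon 2, chr2:155942085-155942228, minus strand: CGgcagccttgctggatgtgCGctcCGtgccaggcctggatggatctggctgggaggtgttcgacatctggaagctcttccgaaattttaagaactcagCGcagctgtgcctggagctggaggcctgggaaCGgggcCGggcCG

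The first question was how strongly each ligand and antagonist was expressed in cartilage. Levels of different genes are compared here in CPM per kb of transcript. In unoperated cartilage at 4 weeks the antagonist Chrdl2 was highest, at 29.3 ± 16.9 CPM per kb (SD, n = 3), followed by Gdf10, a ligand related to Bmp3, at 19.8 ± 8.72. Grem1, Bmp2, Bmp6 and Bmp4 lay between 6.39 and 9.99 CPM per kb on average, and Nog, Bmp7, Gdf6 and Gdf5 between 1.97 and 3.17. The range of every gene overlapped that of its neighbor in this order. In unoperated cartilage at 12 weeks Chrdl2, Bmp2 and Gdf10 were the 3 highest, at 16.3 ± 12.4, 11.8 ± 6.41 and 11.7 ± 1.75 CPM per kb. Gdf10 there lay above Bmp4, at 4.89 ± 0.711, in every library. Gdf6 was the lowest, at 0.310 ± 0.110 CPM per kb, and did not overlap Gdf5, the next gene, at 1.61 ± 0.767.

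In DMM cartilage the order was led by Gdf10 at 4 weeks, at 20.9 ± 10.5 CPM per kb, with Chrdl2 at 10.3 ± 7.61. A gap lay between Grem1, at 5.29 ± 1.87, and Gdf5, at 2.15 ± 0.447, which did not overlap. At 12 weeks Chrdl2, Gdf10 and Bmp2 led in DMM cartilage too, at 31.1 ± 7.23, 23.8 ± 2.15 and 21.4 ± 5.57 CPM per kb, and did not overlap Bmp4, at 7.16 ± 0.574. Gdf6 was again lowest, at 1.26 ± 0.364 CPM per kb, below Nog at 3.53 ± 1.74.

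**Figure D1:**
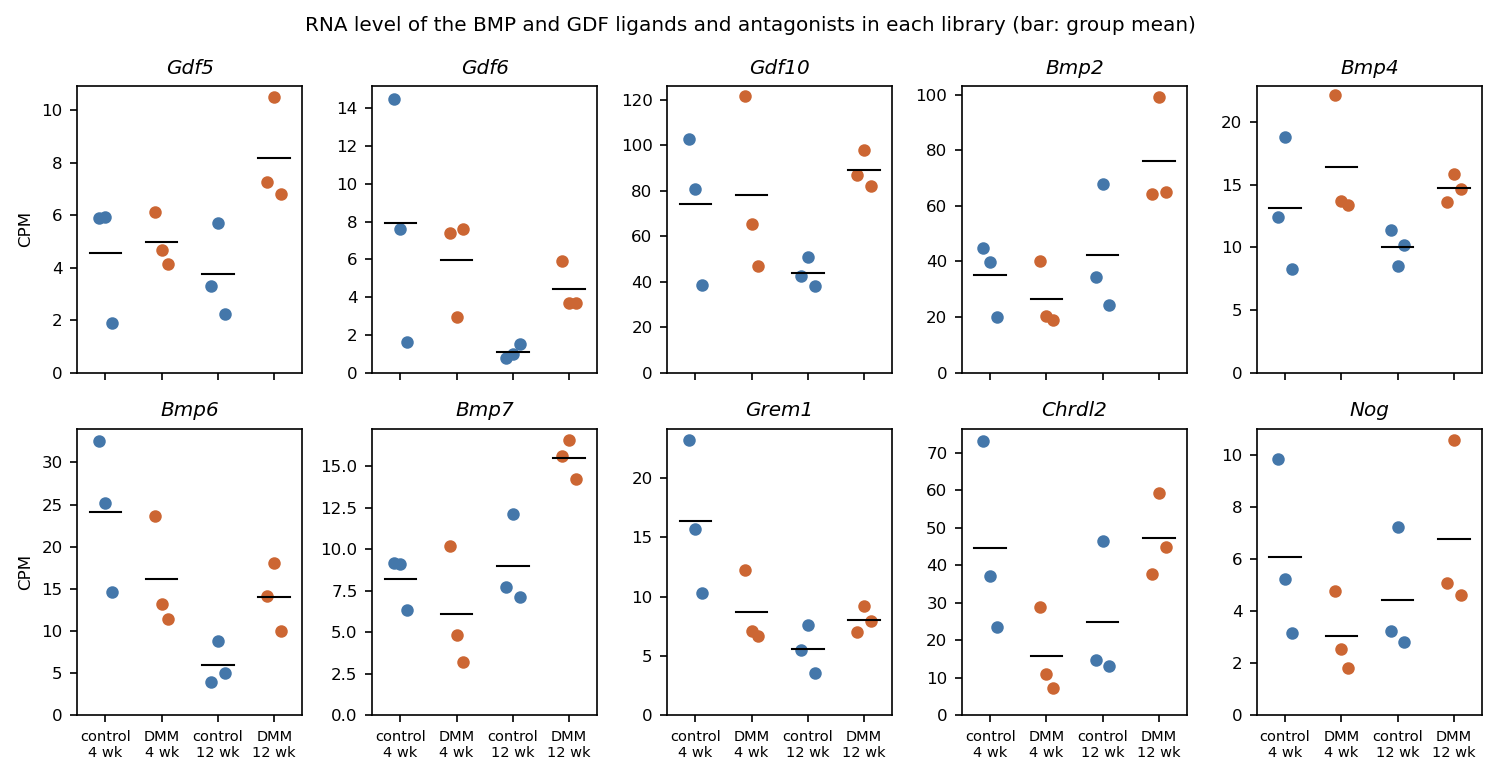
RNA level in CPM (linear axis from 0) of each of the 10 genes in the 3 libraries of each group, with points for libraries and bars for group means. At 12 weeks the 3 DMM libraries lie above the 3 control libraries for Gdf5, Gdf6, Gdf10, Bmp4, Bmp6 and Bmp7, whereas at 4 weeks the groups overlap for all 10.

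At 12 weeks after DMM, all 10 members had a higher fitted level in DMM than in control cartilage, but none passed the test. In edgeR's quasi-likelihood test over all rows, 0 of 10 had an adjusted p-value under 0.05, against 0.00476% of all 21010 rows tested. Before adjustment 6 of 10 were higher with a p-value under 0.05, against 8.94% of all rows. The same 6 had DMM libraries all above the control libraries, against 10% of all rows. The median log2 fold change of the 10 was 0.90, beside 0.01 over all rows. DESeq2, the tool that the study's methods name, called 5 of 10 higher at an adjusted p-value under 0.05, against 2.70% of rows tested. These were Gdf5, Gdf6, Gdf10, Bmp6 and Bmp7.

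Gdf6 had the largest fold change of the ligands. Its control libraries held 0.758, 1.0 and 1.52 CPM and its DMM libraries 5.92, 3.71 and 3.68 CPM. Every DMM library thus lay above every control library, with a log2 fold change of 2.04 (SE 0.35, adjusted p = 0.111 in edgeR and 1.18e-05 in DESeq2). Gdf5, which like Gdf6 acts in joint formation, was at 3.29, 5.70 and 2.23 CPM in control and 7.27, 10.5 and 6.82 CPM in DMM cartilage. The groups did not overlap, and the log2 fold change was 1.13 (SE 0.35, adjusted p = 0.244 in edgeR and 0.0437 in DESeq2).

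Gdf10 had the smallest SE of the members. It was at 42.5, 51.0 and 38.2 CPM in control and 87.1, 97.8 and 82.1 CPM in DMM cartilage, with a fitted log2 difference of 1.03 (SE 0.14). Its adjusted p-value was the lowest of the members in both tools, 0.0643 in edgeR and 4.81e-07 in DESeq2.

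Among the BMPs, Bmp6 was at 3.91, 8.80 and 5.0 CPM in control and 14.1, 18.1 and 10 CPM in DMM cartilage. The lowest DMM library was close to the highest control library, and the log2 fold change was 1.25 (SE 0.33, adjusted p = 0.215 in edgeR and 0.0152 in DESeq2). Bmp7, studied as a cartilage anabolic factor, was at 7.73, 12.1 and 7.09 CPM in control and 15.6, 16.6 and 14.2 CPM in DMM cartilage. Its log2 fold change was 0.79 (SE 0.22, adjusted p = 0.219 in edgeR and 0.0401 in DESeq2). Bmp4 had the smallest difference of the ligands, from 11.4, 8.51 and 10.2 CPM to 13.6, 15.9 and 14.7 CPM. Its groups did not overlap, but neither tool called it (log2 fold change 0.56, SE 0.16, adjusted p = 0.230 in edgeR and 0.0626 in DESeq2). Bmp2 was at 34.2, 67.9 and 24.3 CPM in control and 64.4, 99.1 and 65 CPM in DMM cartilage. Control replicate 2 lay above 2 of the 3 DMM libraries, and neither tool called the difference (log2 fold change 0.86, SE 0.38, adjusted p = 0.314 in edgeR and 0.148 in DESeq2). RefSeq genes overlap Bmp4, Bmp6 and Bmp7, among them Txndc5 on the opposite strand at the 3′ end of Bmp6, and their reads may not be separable because strand-specific counting is not given in the sources used here.

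The groups of all 3 antagonists overlapped at 12 weeks, and neither tool called any of them. Chrdl2 was at 14.7, 46.5 and 13.1 CPM in control and 37.7, 59.3 and 44.9 CPM in DMM cartilage, so that control replicate 2 lay among the DMM libraries (log2 fold change 0.94, SE 0.52, adjusted p = 0.402 in edgeR). Nog, which encodes noggin, was at 3.22, 7.25 and 2.80 CPM against 5.08, 10.6 and 4.62 CPM, with the same control library inside the DMM range (log2 fold change 0.61, SE 0.45, adjusted p = 0.497 in edgeR). Grem1 was at 5.52, 7.57 and 3.51 CPM against 7.02, 9.22 and 7.94 CPM (log2 fold change 0.54, SE 0.28, adjusted p = 0.354 in edgeR).

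The number of calls at 12 weeks changed most when control replicate 2 was left out, and it rose. It held the highest summed chondrocyte markers of its group, 21140 CPM against 11134 and 7348 CPM, and the highest control level of Gdf5, Gdf10, Bmp2, Bmp6, Bmp7, Grem1, Chrdl2 and Nog. Without it, edgeR called 7 members higher at an adjusted p-value under 0.05, namely Gdf5, Gdf6, Gdf10, Bmp2, Bmp6, Bmp7 and Chrdl2, against 1.94% of all rows called higher in that fit. DESeq2 called 9, all but Bmp4, against 8.98% of rows. Without DMM replicate 3, edgeR called Gdf10 alone, against 0.481% of rows. Without each of the other libraries edgeR called 0. DESeq2 called 2 members, Gdf6 and Gdf10, without control replicate 1, control replicate 3, DMM replicate 1 or DMM replicate 2, against 0.652 to 1.19% of rows, and 5 without DMM replicate 3, against 5.70%.

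The 12 chondrocyte markers were themselves all fitted higher in DMM cartilage at 12 weeks, with 1 called by DESeq2, while their summed levels overlapped between the limbs. As a scale chosen after seeing the data, each member was also expressed per 10000 CPM of the summed chondrocyte markers. Prg4, which encodes lubricin, made up 59.9 to 78.8% of this sum in each library. On this scale Gdf5, Bmp2 and Chrdl2 lay above control in every DMM library, against 0.666% of all rows, whose median log2 ratio was -0.74. Gdf5 was at 2.96, 2.70 and 3.03 in control and 4.81, 4.41 and 3.71 in DMM cartilage. Bmp2 was at 30.7, 32.1 and 33.1 against 42.6, 41.5 and 35.3, and Chrdl2 at 13.2, 22.0 and 17.8 against 24.9, 24.9 and 24.4. Gdf10 overlapped on this scale, at 38.2, 24.1 and 51.9 against 57.6, 41.0 and 44.6. Gdf6 overlapped as well, at 0.681, 0.474 and 2.07 against 3.92, 1.56 and 2.0. Bmp4, Grem1 and Nog had log2 fold changes in CPM smaller than the shift of the median row on this scale. Their means on it were 9.41, 4.44 and 3.38 in control and 7.88, 4.27 and 3.44 in DMM cartilage. Without Prg4, also tried after seeing the data, the sum of the other 11 markers was itself higher in every DMM library at 12 weeks, at 2048 to 4485 against 4740 to 7060 CPM. Per 10000 CPM of these 11, Gdf5 was still above control in every DMM library, at 11.3, 12.7 and 10.9 against 13.4, 14.9 and 14.4, and no other member was, against 0.352% of all rows. Bmp2 and Chrdl2 overlapped on that scale, and Grem1 was lower in every DMM library, against 47.6% of all rows. Bmp4, Bmp7 and Nog also had lower means in DMM than in control cartilage there.

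Markers of other tissues moved with the limb at 12 weeks as well. DESeq2 called 2 of 6 tendon and ligament, 3 of 8 fibroblast and synovium and 3 of 9 osteoblast and osteocyte markers higher. Of all rows tested, 2.70% were called higher. In edgeR's fit 6 of the 6, 6 of the 8 and 6 of the 9 lay above control. The fibroblast and synovium marker Dpp4 was lower in every DMM library, at 13.4 to 17.3 against 11.3 to 12.8 CPM. DESeq2 called 2 of 7 erythroid markers lower. The fibroblast and synovium markers summed to 149 to 204 CPM in control and 197 to 285 CPM in DMM cartilage. All 7 erythroid and all 8 neutrophil and marrow markers were fitted below control, with overlapping sums. The part of these tissues in the members' levels was not tested.

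**Figure D2:**
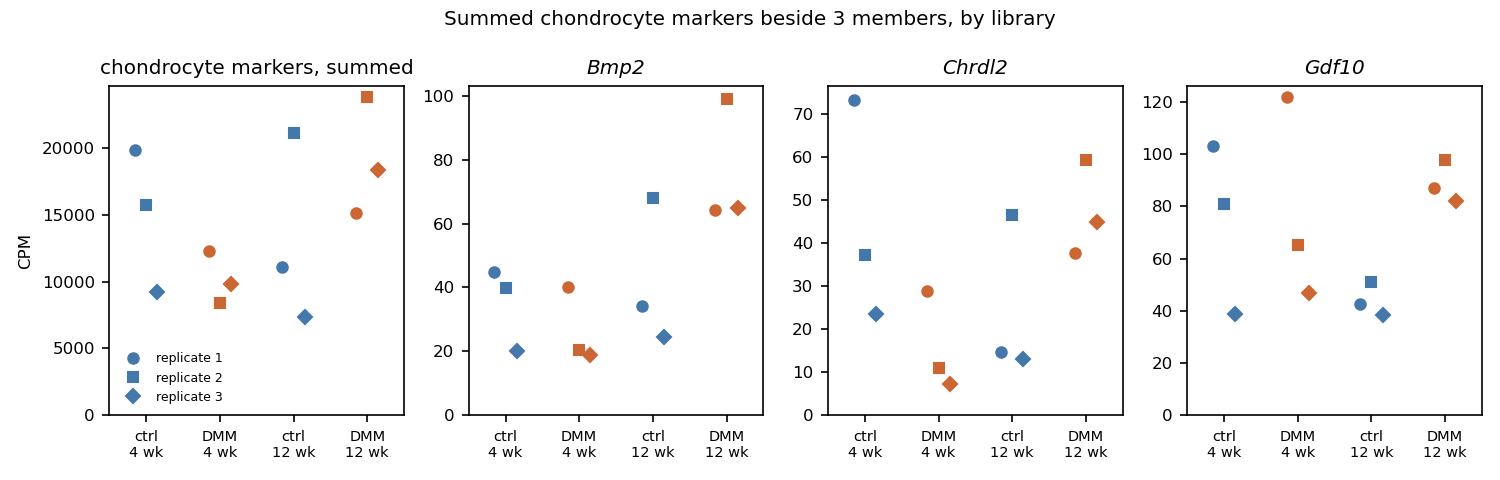
Summed level of the 12 chondrocyte markers beside Bmp2, Chrdl2 and Gdf10, in CPM on linear axes from 0, with blue symbols for control and orange for DMM libraries and a symbol shape for each replicate number. Control replicate 2 at 12 weeks has the highest marker sum of its group, 21140 CPM, and the highest Bmp2 and Chrdl2, while Gdf10 at 51.0 CPM stays below all 3 DMM libraries.

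At 4 weeks none of the 10 members was called in edgeR or in DESeq2, and DMM and control libraries overlapped for every member. The share of all 21140 rows called by edgeR was 0.0757%, and DESeq2 called 1.32% of its rows higher and 2.12% lower. Groups did not overlap in 10.8% of all rows with DMM higher and in 10.4% with DMM lower. Of the 10 members, 3 had a fitted value above and 7 below control, and their median log2 fold change was -0.41 beside -0.03 over all rows. Before adjustment 2 of 10, Grem1 and Chrdl2, were lower with a p-value under 0.05 in edgeR's test, against 7.57% of all rows, and 3 of 10 in DESeq2, against 8.13% of its rows.

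The 3 antagonists had the lowest fold changes at 4 weeks. Chrdl2 was at 73.2, 37.1 and 23.4 CPM in control and 28.8, 10.9 and 7.19 CPM in DMM cartilage. The highest DMM library lay above the lowest control library, and the log2 fold change was -1.50 (SE 0.58, adjusted p = 0.342 in edgeR and 0.106 in DESeq2). Grem1 was at 23.2, 15.7 and 10.3 CPM in control and 12.2, 7.11 and 6.71 CPM in DMM cartilage, with a log2 fold change of -0.91 (SE 0.36, adjusted p = 0.348 in edgeR and 0.190 in DESeq2). Nog was at 9.86, 5.25 and 3.16 CPM against 4.77, 2.56 and 1.83 CPM, with a log2 fold change of -0.98 (SE 0.49, adjusted p = 0.391 in edgeR and 0.293 in DESeq2). In all 3, DMM replicate 1 was the highest DMM library. Without it DESeq2 called Chrdl2, Grem1, Nog and Bmp7 lower, against 8.14% of rows in that fit, whereas edgeR called none. Without control replicate 3 DESeq2 called Grem1 lower, against 4.59% of rows.

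The ligands were spread around 0 at 4 weeks. Gdf5 was at 1.90 to 5.92 CPM in control and 4.15 to 6.14 CPM in DMM cartilage (log2 fold change 0.14, SE 0.43), and Gdf10 at 38.6 to 103 and 46.9 to 122 CPM (log2 fold change 0.09, SE 0.43). Bmp4 was at 8.24 to 18.8 and 13.4 to 22.2 CPM (log2 fold change 0.33, SE 0.34). Gdf6 had the widest spread, with 14.5, 7.60 and 1.60 CPM in control and 7.39, 2.92 and 7.59 CPM in DMM cartilage, and a log2 fold change of -0.39 (SE 0.69). Bmp2, Bmp6 and Bmp7 had log2 fold changes of -0.39 (SE 0.38), -0.57 (SE 0.37) and -0.42 (SE 0.42).

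Per 10000 CPM of chondrocyte markers, every DMM library at 4 weeks lay below control for Grem1 and Chrdl2, against 2.76% of all rows, and above control for Gdf5 and Bmp4, against 14.4% of all rows, whose median log2 ratio was 0.41 on this scale. Chrdl2 was at 36.8, 23.6 and 25.4 in control and 23.4, 13.0 and 7.34 in DMM cartilage, and Grem1 at 11.7, 9.95 and 11.1 against 9.90, 8.46 and 6.85. With Prg4 left out of the sum, Grem1, Chrdl2, Nog and Bmp6 lay below control in every DMM library, against 4.84% of all rows, and Gdf10 and Bmp4 above, against 5.79%, while Gdf5 overlapped. Skeletal muscle markers moved with the limb at 4 weeks, 9 of 12 called lower by DESeq2. The 9 osteoblast and osteocyte markers summed to 6214 to 6719 against 8154 to 10503 CPM, higher in every DMM library. Ibsp, at 2235 to 4146 against 5458 to 6337 CPM, was the largest of them in DMM cartilage, while Sost, Sp7 and Col1a1 overlapped. The 8 fibroblast and synovium markers summed to 167 to 345 against 380 to 636 CPM, also higher in every DMM library. Among them Pi16 was lower in every DMM library, at 18.4 to 20.9 against 12.5 to 16.6 CPM. In edgeR's fit 7 of the 9 and 7 of the 8 lay above control. None of these markers was at 0 in all libraries. Their part in the members' levels was not tested.

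**Figure D3:**
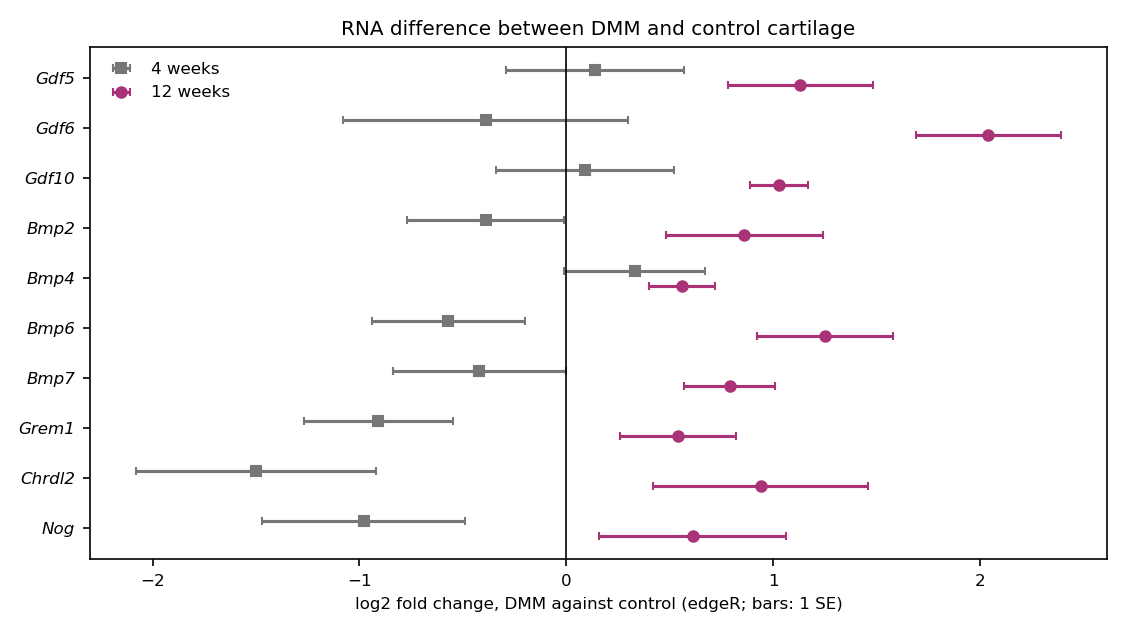
Log2 fold change of DMM against control cartilage for the 10 genes from edgeR, with gray squares for 4 weeks, purple circles for 12 weeks and bars of 1 SE. All 10 values lie above 0 at 12 weeks, up to 2.04 for Gdf6, and 7 of 10 lie below 0 at 4 weeks, down to -1.50 for Chrdl2, with no call in either week.

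Whether the difference between the limbs itself changed from 4 to 12 weeks was tested as the interaction of limb and week over all 12 libraries. No member was called in edgeR, which called 0% of all 21618 rows, or in DESeq2, which called 0.0613%. Before adjustment 5 of 10 members had a p-value under 0.05 in edgeR, against 12.3% of all rows. They were Bmp6, Grem1, Gdf6, Chrdl2 and Bmp7, each with a more positive difference at 12 weeks. The change in log2 fold change was 2.44 for Chrdl2 (SE 0.87), 2.43 for Gdf6 (SE 0.87), 1.83 for Bmp6 (SE 0.55), 1.45 for Grem1 (SE 0.49) and 1.21 for Bmp7 (SE 0.51), all with an adjusted p-value of 0.405 in edgeR. It was 1.60 for Nog (SE 0.74), 1.25 for Bmp2 (SE 0.59) and 0.99 for Gdf5 (SE 0.60). For Gdf10 and Bmp4 it was 0.94 (SE 0.51) and 0.23 (SE 0.40).

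The unoperated limbs also differed between the weeks, in a comparison that shares its control libraries with those above. Gdf6, Bmp6 and Grem1 fell from 4 to 12 weeks in control cartilage, and the other 7 members were not called. These 3 of 10 stand against 5.69% of all rows called in either direction by edgeR and 3.24% called lower. DESeq2 called the same 3 lower, against 7.49% of its rows. Gdf6 went from 14.5, 7.60 and 1.60 CPM to 0.758, 1.0 and 1.52 CPM, with its lowest 4-week library just above its highest 12-week library (log2 fold change -2.85, SE 0.65, adjusted p = 0.0291 in edgeR). Bmp6 went from 32.6, 25.2 and 14.6 CPM to 3.91, 8.80 and 5.0 CPM (log2 fold change -2.02, SE 0.40, adjusted p = 0.0183 in edgeR). Grem1 went from 23.2, 15.7 and 10.3 CPM to 5.52, 7.57 and 3.51 CPM (log2 fold change -1.56, SE 0.35, adjusted p = 0.0270 in edgeR). Every 12-week library of these 3 genes lay below every 4-week library, as in 10.9% of all rows. Marker sums also differed among these control libraries, with neutrophil and marrow and skeletal muscle ranges that overlapped between the weeks. The neutrophil and marrow markers went from 8879 to 25394 CPM at 4 weeks to 24958 to 41884 CPM at 12 weeks, and the skeletal muscle markers from 5844 to 21100 to 87.4 to 14906 CPM. The osteoblast and osteocyte sums overlapped, at 6214 to 6719 and 5817 to 11334 CPM, and within that list Col1a1 was at 813 to 2612 and 3524 to 8090 CPM and Ibsp at 2235 to 4146 and 1069 to 1678 CPM. Their part in the members' levels was not tested. The calls rested on few libraries. EdgeR called none of the 3 without replicate 1 or replicate 2 of the 4-week controls, or without replicate 1 or replicate 3 of the 12-week controls, fits in which 0.137 to 0.993% of all rows were called lower. It called Bmp6 and Grem1 without replicate 2 of the 12-week controls, against 1.80% of rows, and Gdf10 beside the 3 without replicate 3 of the 4-week controls, against 11.2%.

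The wider pathway was read from 54 further genes, the receptors, co-receptors, SMADs, target genes and the other ligands and antagonists. EdgeR called 0 of the 49 tested at 4 weeks and 0 of the 47 tested at 12 weeks. At 12 weeks 16 of the 47 had an unadjusted p-value under 0.05, all higher in DMM cartilage, against 8.94% of all rows. Of the 47, 37 were fitted above and 10 below control, beside 10813 above and 10197 below over all rows, and their median log2 fold change was 0.45 beside 0.01. At 4 weeks 4 were higher and 6 lower before adjustment, against 6.11 and 7.57% of all rows, with a median of -0.12 beside -0.03. All 6 SMADs and all 9 target genes were fitted above control at 12 weeks, with no call in either tool. The inhibitory Smad6 had a log2 fold change of 0.95 (SE 0.31), Smad1 of 0.17 (SE 0.12), and the targets Id2 and Id3 of 0.38 (SE 0.20) and 0.46 (SE 0.17). Of the 7 receptors, 4 were fitted above and 3 below control. The type I receptors Bmpr1a and Acvrl1 had log2 fold changes of 0.56 (SE 0.20) and -0.05 (SE 0.19), and the co-receptors Neo1 and Eng of 0.45 (SE 0.16) and 0.19 (SE 0.13).

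DESeq2 called 5 genes of the wider list at 12 weeks, all higher, 4 of the 14 antagonists and extracellular regulators and 1 of the 4 co-receptors, against 2.70% of rows tested. Nbl1, a secreted BMP antagonist of the DAN family, had a log2 fold change of 1.79 (SE 0.27, adjusted p = 0.0643 in edgeR and 3.73e-08 in DESeq2). The antagonists and regulators Crim1, Sost and Fstl1 were at 0.79 (SE 0.16), 0.80 (SE 0.20) and 0.77 (SE 0.22), with adjusted p-values of 0.00185, 0.00920 and 0.0485 in DESeq2. The co-receptor Rgmb had a larger fold change than these 3, at 1.09 (SE 0.29, adjusted p = 0.0216). At 4 weeks DESeq2 called Fstl1 higher (log2 fold change 1.27, adjusted p = 0.00711) and the target Id4 lower (log2 fold change -2.18, adjusted p = 0.0151), 1 of 52 tested in each direction against 1.32 and 2.12% of rows. The Id4 libraries overlapped, at 22.3 to 184 CPM in control and 13.8 to 28.6 CPM in DMM cartilage. Among the other ligands, Bmp5 and Bmp8a had log2 fold changes of 0.07 (SE 0.46) and 0.45 (SE 0.19) at 12 weeks, and of 10 tested 5 lay above and 5 below control. Sost is also an osteocyte marker. The summed osteoblast and osteocyte markers, of which Col1a1 was the highest at 12 weeks, overlapped between the limbs at 5817 to 11334 against 9172 to 11299 CPM. That list of 9 includes Sost itself. In it 6 were fitted above control in edgeR, and DESeq2 called 3 higher, Sost among them, against 2.70% of rows tested. Ibsp, a bone matrix gene, was higher in every DMM library, at 1069 to 1678 against 2191 to 3497 CPM. Bglap and Col1a1 overlapped, at 233 to 533 against 342 to 393 CPM and at 3524 to 8090 against 4900 to 6099 CPM. The part of bone in the Sost level was not tested.

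DNA methylation was read as the percentage of reads with C at each cytosine. In oxBS libraries this percentage is 5-methylcytosine (5mC), and in bisulfite (BS) libraries it is 5mC plus 5-hydroxymethylcytosine (5hmC). Median coverage per cytosine in the oxBS libraries was 22 to 102 reads at 4 weeks and 28 to 72 at 12 weeks. Across the members, 936 of the 1214 cytosines tested at 4 weeks and 853 of the 1141 at 12 weeks had under 5% 5mC in control cartilage. Within 1 kb of the start, the mean 5mC of control cartilage at 12 weeks was 0.384 to 2.29% in Gdf6, Gdf10, Bmp2, Bmp6, Bmp7, Grem1, Chrdl2 and Nog. It was 3.86 ± 1.15% in Bmp4 (SD, n = 3, 9 cytosines) and 54.4 ± 8.19% at the 2 cytosines tested in Gdf5. In the bodies beyond 1 kb, Bmp6, Gdf10 and Bmp7 were at 74.1, 70.1 and 67.0% on average, and Gdf6 and Bmp2 at 5.04 and 9.15%.

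Gdf5 was the only member whose gene mean of 5mC was called at 12 weeks. The mean over its 21 cytosines, all in the gene body, was 42.1, 38.5 and 43.8% in control and 22.7, 27.3 and 25.9% in DMM cartilage. The groups did not overlap, and limma's moderated test over all genes gave a difference of -16.2 percentage points (SE 1.87, adjusted p = 0.0454). It was 1 of 10 members called, against 1.20% of all 28478 genes, whose median difference was -0.443 points. Before adjustment 5 of 10 members had a p-value under 0.05, against 21.5% of all genes. The call was close to the threshold and was lost without any 1 of the 6 libraries. The differences in those fits were -14.9 to -17.7 points, with adjusted p-values of 0.0673 to 0.142 in limma. Those fits called 0 to 4 of all genes, beside 342 in the full fit. Other settings of the same test that ended the call gave adjusted p-values of 0.0652 to 0.198.

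The Gdf5 difference lay mainly in exon 2 (chr2:155941023-155942417, GRCm38), which holds the stretch printed above. Its 15 cytosines averaged 46.0, 41.8 and 46.6% in control and 21.1, 26.6 and 25.5% in DMM cartilage at 12 weeks, a difference of -20.4 points. The 4 intron cytosines differed by -2.74 points and overlapped between the limbs, and the 2 cytosines of exon 1 by -11.5 points. In the BS libraries of the same DNA, used after seeing the data, exon 2 was at 42.6, 45.2 and 43.4% in control and 33.8, 33.6 and 22.4% in DMM cartilage, again with no overlap. Of the 21 cytosines, 16 (76.2%) had an unadjusted p-value under 0.05 in a likelihood ratio test on pooled reads, all lower in DMM cartilage. Neighboring cytosines share reads, and this test treats reads rather than libraries as its units.

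A cytosine of Gdf5 met the study's rule of at least 25 points and a q-value under 0.05. It lies at chr2:155942096 on the plus strand, 3271 bp from the start, within the printed stretch. It was at 52.6, 34.8 and 43.9% in control and 18.7, 14.7 and 28.8% in DMM cartilage, from 57, 23 and 41 and from 75, 34 and 52 reads, a pooled difference of -25.2 points (q = 0.00363). The next cytosine, at chr2:155942090, fell just outside the rule with -24.5 points (q = 0.00553). The members held 1 called cytosine of 1141, against 0.227% of all cytosines. Before adjustment 128 of the 1141 (11.2%) had a p-value under 0.05, against 9.43% of all, and without Gdf5 the share was 10%. With a test that allows for spread between libraries, no cytosine of the members or of the whole table was called. In the test on pooled reads without DMM replicate 1, 0 member cytosines were called, against 0.129% of all. That library gave 75 of the 161 DMM reads at chr2:155942096.

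At 4 weeks Gdf5 was at 42.1, 22.8 and 29.9% in control and 27.5, 13.2 and 19.2% in DMM cartilage. The mean difference of -11.6 points was in the direction seen at 12 weeks, but the libraries overlapped and the difference was not called (SE 6.31, adjusted p = 0.740 in limma). No member was called at 4 weeks, against 0% of all 28865 genes, and none had an unadjusted p-value under 0.05. None of the 1214 cytosines was called, against 5.54e-04% of all, and 101 (8.32%) had an unadjusted p-value under 0.05, against 8.02% of all. Without control replicate 2, 1 cytosine was called, against 0.210% of all cytosines in that fit.

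**Figure D4:**
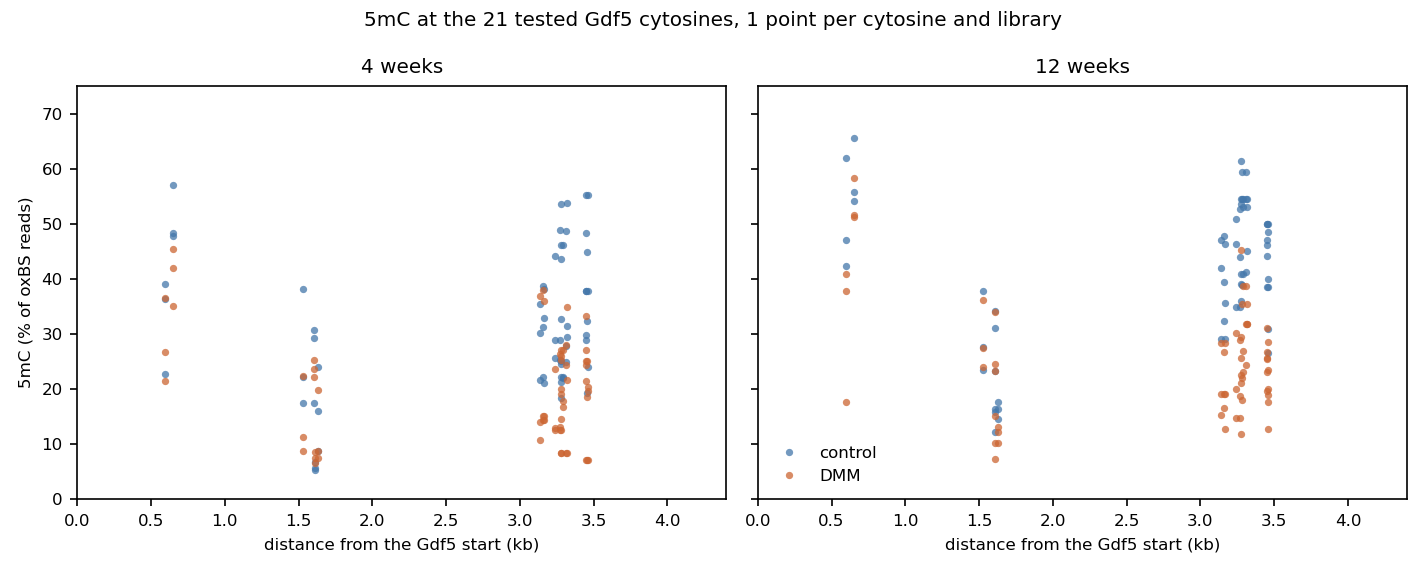
5mC at the 21 tested cytosines of Gdf5 by distance from its transcription start in kb, with blue points for the 3 control and orange points for the 3 DMM libraries, at 4 weeks (left) and 12 weeks (right). At 12 weeks the orange points of the exon 2 cluster beyond 3 kb lie mostly below the blue points, with means of 24.4 and 44.8%, while the intron cytosines near 1.5 kb overlap.

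The gene means of the other members differed by at most 2.17 points at 12 weeks. These means cover unlike sets of cytosines. Under 5% 5mC in control cartilage were 0 of 21 cytosines in Gdf5, but 181 of 183 in Nog, 193 of 215 in Bmp2 and 104 of 152 in Bmp6. In the bodies beyond 1 kb the difference was -3.54 points in Bmp6 and -2.80 in Bmp7, and 2.60 in Gdf10, whose libraries overlapped. Bmp4 was at 24.4, 24.6 and 23.5% in control and 21, 23.1 and 21.8% in DMM cartilage (-2.17 points, SE 0.671, adjusted p = 0.159 in limma). Bmp7 was at 37.5, 37.0 and 37.7% against 35.3, 36.2 and 34.9% (-1.93 points, SE 0.433, adjusted p = 0.0936 in limma). Bmp6 was at 21.3, 20.7 and 21.4% against 20.1, 19.6 and 19.9% (-1.28 points, SE 0.305, adjusted p = 0.102 in limma). With Gdf5 and Nog, at 0.988, 0.789 and 0.709% against 0.648, 0.611 and 0.671%, 5 of 10 members had lower values in every DMM library, against 24.8% of all genes. Of these only Gdf5 was called. Gdf6 differed the other way, at 2.46, 2.75 and 2.31% in control and 3.47, 3.21 and 3.60% in DMM cartilage (0.921 points, SE 0.252, adjusted p = 0.128 in limma), and was the 1 member higher in every DMM library, against 4.45% of all genes. Gdf10, Bmp2 and the antagonists Grem1, Chrdl2 and Nog differed by -0.433 to 0.0830 points.

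Within Bmp7, the mean over the 11 cytosines downstream of the gene did not overlap between the limbs at 12 weeks. It was 41.0, 34.7 and 39.7% in control and 27.0, 29.0 and 26.8% in DMM cartilage. At 4 weeks the downstream mean overlapped. This window was picked after its values were seen and has no test. A Bmp7 intron cytosine at chr2:172877590 was at 57.4, 65.6 and 63.0% against 47.1, 28.6 and 44.4% (pooled difference -20.8 points, q = 0.0184). Another, at chr2:172934061, went the other way (pooled difference 7.6 points, q = 0.0451). The largest single differences of the members at 12 weeks were both in Gdf10, in opposite directions. An intron cytosine at chr14:33924585 differed by -26.9 points (q = 0.242), from 52.9, 80.0 and 45.5% to 25, 28.6 and 40.0% on 10 to 24 reads per library. A coding cytosine at chr14:33932614 differed by 15.4 points (q = 0.396). At 4 weeks both were in Bmp7 introns, at chr2:172896510 with -15.6 points (q = 0.562) and at chr2:172882527 with 19.0 points (q = 0.567).

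In the BS libraries, used after seeing the data, Gdf5, Bmp2, Bmp6 and Bmp7 were lower in every DMM library at 12 weeks, 4 of 10 members against 16.4% of all genes. The means were 22.2 against 21.5% in Bmp6, 40.3 against 38.7% in Bmp7 and 3.85 against 3.42% in Bmp2, which overlapped in oxBS. Gdf6 was again higher in every DMM library, at 3.29 against 4.95%, where 6.77% of all genes were. Bmp4 overlapped in BS, at 26.5 against 26.4%, where its oxBS libraries at the same cytosines were at 24.9 against 22.7%. No member was called for 5hmC, the BS minus oxBS difference, at either week, against 0% of all genes at 4 weeks and 0% at 12 weeks. Of the 10, Gdf5 at 4 weeks and Bmp4 at 12 weeks had an unadjusted p-value under 0.05, 1 member in each week against 3.63 and 7.07% of all genes. Gdf5 at 4 weeks was at 0.106, -0.593 and 0.813% in control and 2.47, 3.87 and 4.72% in DMM cartilage (3.58 points, SE 0.725, adjusted p = 0.955 in limma). At 12 weeks its 5hmC values overlapped, at -0.273, 2.92 and -2.57% against 10.2, 5.57 and -3.28% (4.13 points, SE 3.82). For DMM replicate 1 at 12 weeks, the BS file carries another number than its label, and the label was followed.

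**Figure D5:**
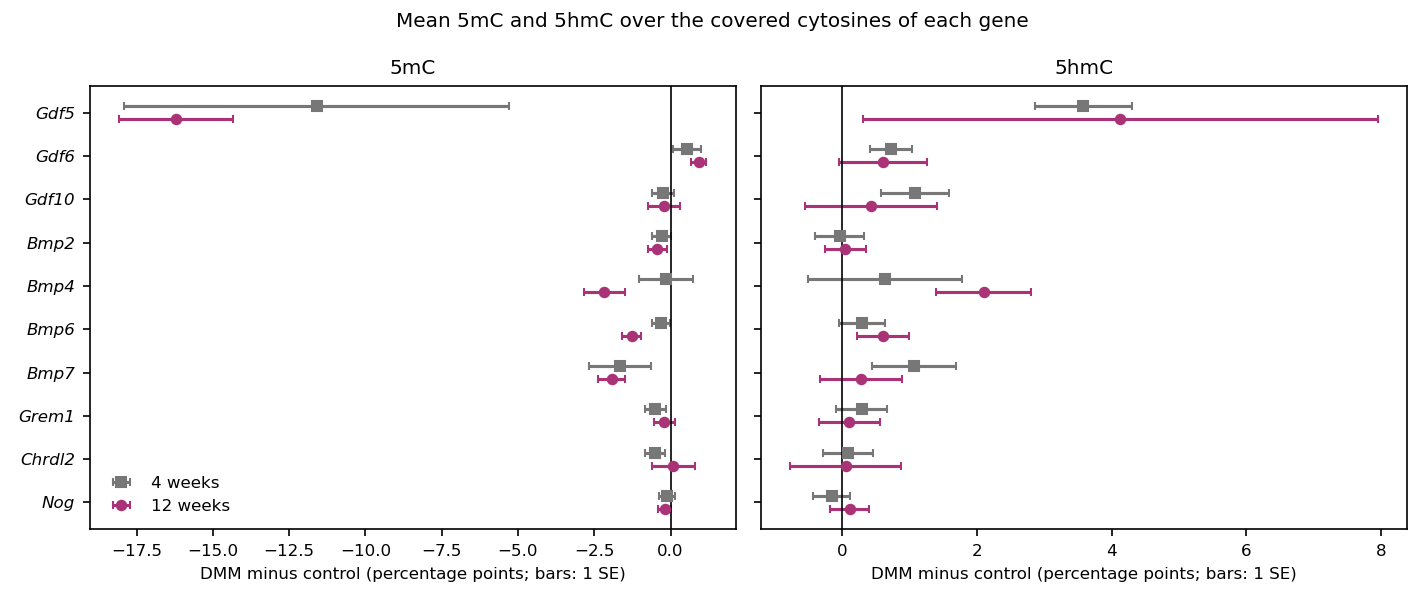
Difference in mean 5mC (left) and 5hmC (right) between DMM and control cartilage in percentage points for the 10 genes, from limma, with gray squares for 4 weeks, purple circles for 12 weeks and bars of 1 SE. Gdf5 stands at -16.2 points of 5mC at 12 weeks, while the other members lie within 2.17 points of 0 in both weeks.

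RNA and 5mC are set side by side here without a test, since they came from different mice. At 12 weeks Gdf5 had a higher RNA level in every DMM library and the most negative 5mC difference of the members. Gdf6 had the highest log2 fold change of RNA and a 5mC difference above 0. Gdf10 had an RNA log2 fold change of 1.03 beside a 5mC difference of -0.212 points. Bmp4, Bmp6 and Bmp7 had, like Gdf5, higher RNA and a lower gene mean of 5mC in every DMM library. These are 4 of 10 members, against 3.73% of the 14117 genes tested in both. The promoter window of Bmp4 went the other way in 5mC, at 3.45 to 6.02% in control and 6.39 to 8.39% in DMM cartilage. It holds 5 covered cytosines, was picked after its values were seen and has no test. The 9 cytosines within 1 kb of the Bmp4 start overlapped between the limbs, at 3.86 against 5.34% on average. The BS libraries of Bmp4 overlapped, at 26.5 against 26.4%. The RNA of Bmp2, Grem1, Chrdl2 and Nog overlapped between the limbs.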

How the data were processed

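The deposited RNA values are raw counts per RefSeq transcript. Per the labels and the study's methods, the authors made FASTQ files with CASAVA 2.17, removed adapters with FLEXBAR, mapped to mm10 with STAR and counted with featureCounts. The methods describe SMART-Seq v4 and Nextera XT libraries, whereas the labels describe poly(A) libraries. For each CpG cytosine on each strand, the authors deposited the coverage (a read count of at least 10) and the percent of reads with C after MspI digestion, with and without oxidation. All member cytosines tested, 1214 at 4 weeks and 1141 at 12 weeks, many of them shared, were checked to be cytosines of a CpG in GRCm38.

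Symbols came from the RefSeq annotation for 29476 rows and from a supplementary table of the study for 17. The row with the highest mean count stood for a gene, and each member had 1 row. Members and gene lists were chosen with earlier results of these data known. All members are named. Of the wider list, genes called by edgeR or DESeq2 are named, with the 2 of highest CPM per kb in each role group. In each week the member cytosine with the largest difference in each direction is named. Other cytosines, and windows within a gene, were chosen after their values were seen.

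RNA was tested over all rows within each week by the quasi-likelihood method of edgeR 4.0.16 (R 4.3.3), with robust estimates, TMM and a filter on low counts. The interaction of limb and week and the control comparison used all 12 libraries. Adjusted p-values and q-values are Benjamini-Hochberg values, with a threshold of 0.05. An SE is the log2 fold change divided by the root of edgeR's F statistic. CPM used TMM-scaled totals. DESeq2 1.42.0 was an alternative. Gene means of 5mC and 5hmC, over 5 or more cytosines that every library covered by 10 reads, were tested with limma 3.58.1 (robust). Cytosines were tested by a likelihood ratio test on pooled reads in Python 3.11.15, in place of methylKit. The edgeR, limma and cytosine tests were also run on simulated data. Replicates are separate pools of 3 knees, and whether same-numbered control and DMM pools share mice is not given in the sources used here. Unconverted cytosine in the mitochondrial genome was 0.284 to 0.742% of reads. The depth of a library limits precision, and intervals from counts cover counting error only.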

Additional observations from a re-analysis of the deposited data

How the results depend on the processing

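Counts of called members moved with the test and the libraries. At 12 weeks edgeR called 0 members, against 5 in DESeq2, 1 with no filter on low counts, and 0 to 7 with each library left out in turn (7 without control replicate 2 and 1 without DMM replicate 3). The member called with no filter was Gdf10. That fit called 56 of all 25322 rows in either direction, beside 1 of 21010 with the filter. DESeq2 with each library left out, added after seeing the data, called 2 to 9. For the wider pathway at 12 weeks the count was 0 in edgeR, 5 in DESeq2, 1 without the filter, 0 to 3 with a library left out (3 without control replicate 2, where 1.94% of all rows were called higher), and 1 to 13 in DESeq2 with a library left out (13 without control replicate 2 and 10 without DMM replicate 3, where 8.98 and 5.70% were). At 4 weeks DESeq2 called 2 pathway genes against 0 in edgeR. With a library left out DESeq2 called 0 to 4 members and 0 to 7 pathway genes. The 4 members, all lower, came without DMM replicate 1, where 8.14% of rows were called lower. The 7 pathway genes, 6 of them lower, came without control replicate 3, where 4.59% of rows were called lower. The 3 members called between control weeks became 0 to 4 with a library left out, while 0.169 to 21.4% of all rows were called in these fits. The Gdf5 call of 5mC at 12 weeks came from a fit that called 342 of 28478 genes. It became 0 called members in the following settings. With genes of at least 1 cytosine 13 of 34916 genes were called, and with at least 20 reads 300 of 25418. With log2 ratios, and with cytosines within 1 kb of the start (where Gdf5 had too few), 0 genes were called. Without control replicate 2 and DMM replicate 1 together (2 libraries whose titles share a style) 0 genes were called. With any 1 library left out 0 to 4 genes were called. Called member cytosines at 12 weeks went from 1 to 8 of 1141 with a difference of 20 points (0.674% of all cytosines), to 0 with an overdispersion correction or without those 2 libraries, and to 0 to 4 with a library left out (0.129 to 0.409% of all). At 4 weeks they were 0 to 1. The causes were not tested.

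Whether same-numbered pools share mice is not given, and their correlations were not all above 0.1, so the number was not used as a block in the tests reported. Deviations from the group means of same-numbered control and DMM libraries correlated at 0.37, -0.36 and 0.08 at 4 weeks and -0.58, 0.29 and -0.27 at 12 weeks in RNA, and at 0.56, 0.48 and 0.02 and -0.00, -0.05 and 0.01 in 5mC. With the replicate number as a block, 1 member (Chrdl2, lower) was called at 4 weeks and 5 of 10 members and 2 of 47 pathway genes, all higher, at 12 weeks in RNA, against 1.46% of all rows called lower at 4 weeks and 2.28% called higher at 12 weeks, and 0 members in 5mC at 12 weeks. For Gdf5 5mC at 4 weeks the block gave an SE of 1.27 points and no call (adjusted p = 0.230 in limma). The block gave 3 members called between control weeks and 1 cytosine at 12 weeks, as without it. In these fits 1291 of all 21618 rows and 2624 of all 1273121 cytosines were called. Of the alternatives planned, 122 left a count within 1.5 times its value and 37 moved it. The 122 include all settings of 5hmC at both weeks and of 5mC per gene at 4 weeks. In these, 0 genes of the whole table were called, so an unchanged count of 0 members there says little.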
